A study of Homo sapiens with 6 samples.

Results

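The SLC25 mitochondrial carriers are the 47 genes in the deposited count files whose symbol is Slc25a followed by a number, out of 38986 rows. Of these, 40 had enough counts to be tested among 12938 tested genes, and the other 7 are given at the end. The RNA-seq data comprise 6 libraries, 3 per group, whose labels name 293T cells (a human embryonic kidney line) positive for mCherry. One group is labelled as overexpressing wild-type STAT6, an interleukin-responsive transcription factor, and the other as Mock with the genotype WT. Both groups carry the mCherry marker and were grown in the same medium, and the labels name no promoter, vector or clone. Per the series' design text, the comparison asks how STAT6 bears on mitochondrial gene expression.

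The files go against these labels in organism and in the targeted gene. The symbols are mouse symbols, and 0 rows carry a human-style SLC25 symbol. Stat6 was lower in the libraries labelled STAT6 (35.1, 33.6 and 32.1 CPM) than in those labelled Mock (95.2, 95.5 and 92.8 CPM), where CPM is the count scaled to the TMM-adjusted library size. The direction of each comparison below follows the labels alone, and "higher" or "rose" means higher in the libraries labelled STAT6. Of 6 kidney markers 3 had 0 counts in every library (Pax8, Six2 and Umod), and the summed level of the 6 was 2.89 to 3.34 CPM against 0 in the libraries labelled Mock. The 7 pigment cell markers summed to 16162 to 16488 CPM against 14690 to 15132 CPM, and the 6 fibroblast markers to 76.0 to 82.8 against 19.3 to 21.3 CPM. Macrophage, endothelial and epithelial lists stayed at or under 7.16 CPM in every library, with Adgre1, Cdh5 and Epcam at 0. Each of these lists was also higher in the libraries labelled STAT6, without overlap. The macrophage markers summed to 3.51 to 4.02 against 1.14 to 1.43 CPM, and the endothelial ones to 0.569 to 1.01 against 0 to 0.268 CPM. The epithelial markers summed to 5.38 to 7.16 against 1.58 to 3.21 CPM. The part of any of these cell types in the results was not tested. Libraries held 19894773 to 29802693 counts, and no label ties the replicates to different cultures. The p-values therefore measure library-to-library spread, which could be purely technical.

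Carriers of this family sit mainly in the inner mitochondrial membrane and exchange nucleotides, phosphate, carboxylates, amino acids, cofactors and metal ions between the matrix and the cytosol. They are built from repeats of a common module, are encoded in the nucleus, and reach the membrane through the TOM pore and the TIM22 insertase with the help of small TIM chaperones. Many come as close relatives with the same substrate but different tissue use or regulation, so a cell can change its carriers by changing which relative it makes.

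Carriers moved in both directions, and most changes were small. In the libraries labelled STAT6, 11 of the 40 tested genes rose, 17 fell and 12 did not pass the threshold, an adjusted p of 0.05 in edgeR's quasi-likelihood test over all genes tested. The 28 called genes are 70.0% of the family, where 72.6% of all tested genes passed, so the share called is near the background. By direction the family had 27.5% called higher against 35.8% of all genes and 42.5% called lower against 36.8%. Scaled to library totals alone, the split was 8 higher and 20 lower, and the shares over all genes also shifted, to 31.3% higher and 42.3% lower. The median log2 fold change was -0.14 in the family and -0.00 over all tested genes, and the median size of change without its sign was 0.28 against 0.35. Changes of at least 2-fold were found in 3 carriers (7.5%), where 15.5% of all genes passed both criteria. Groups did not overlap in 28 carriers, 10 higher and 18 lower (70.0%), against 74.6% of all tested genes, 36.9% higher and 37.7% lower.

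**Figure D1:**
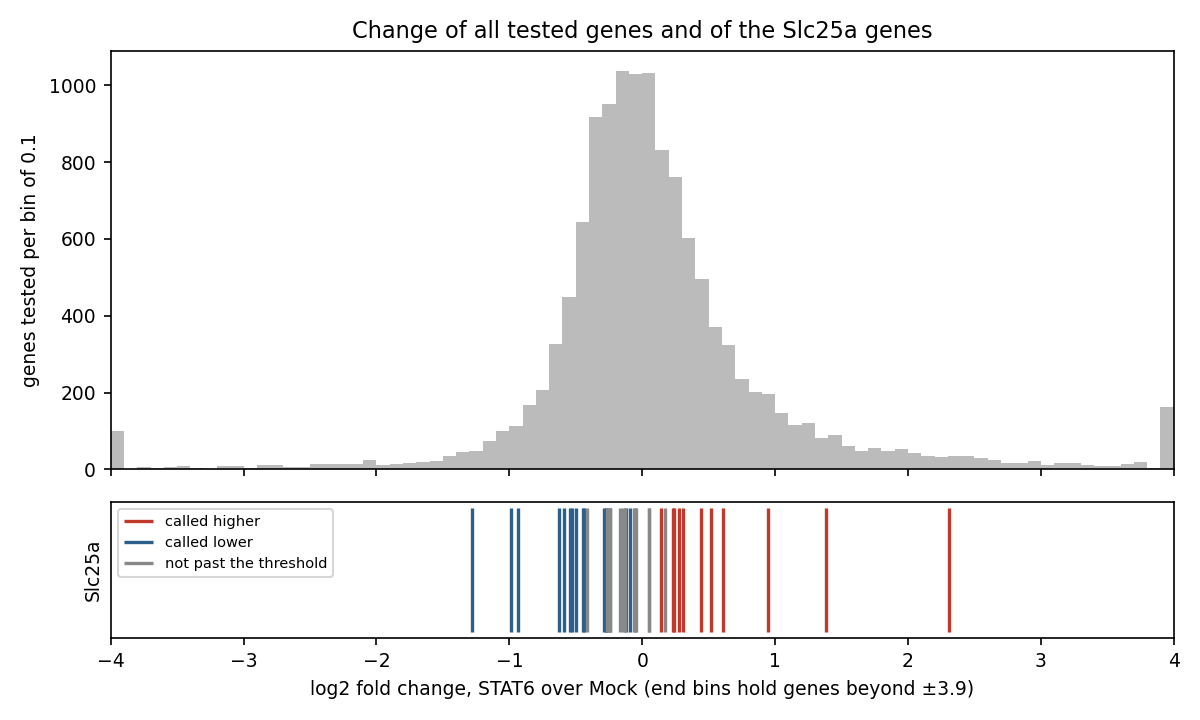
Upper panel: number of tested genes (y axis) by log2 fold change, STAT6 over Mock (x axis), in bins of 0.1. Lower panel: each line is 1 of 39 of the 40 tested Slc25a genes, coloured by its call. The carriers lie between -1.28 and 2.31, with the single highest line at Slc25a34.

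Slc25a5 and Slc25a4 encode the ADP/ATP carriers ANT2 and ANT1, which exchange matrix ATP for cytosolic ADP. ANT2 is the form of growing cells and ANT1 that of heart and muscle. Slc25a5 had the smallest adjusted p of the family. Its level was 427, 411 and 405 CPM in the libraries labelled STAT6 and 667, 612 and 636 CPM in those labelled Mock. The groups were far apart, and the fall was 1.54-fold (log2 fold change -0.62, SE 0.03, adjusted p = 8.88e-19). Slc25a4 stood at 357, 359 and 340.2 CPM against 378, 364 and 383 CPM. Those groups also did not overlap, but the gap was narrow: the log2 fold change was -0.09 (SE 0.03, adjusted p = 0.00848), and the call was lost without STAT6 replicate 3 (adjusted p = 0.0777). Processed copies of ADP/ATP carrier genes are common in mammalian genomes, so the assignment of reads to these genes may be uncertain, which was not tested.

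Among the calcium-regulated ATP-Mg/phosphate carriers, which adjust the adenine nucleotide content of the matrix, members moved apart. Slc25a23 fell from 47.6, 55.9 and 53.8 CPM in the libraries labelled Mock to 34.4, 39.4 and 38.2 CPM (log2 fold change -0.50, SE 0.06, adjusted p = 7.04e-08). Slc25a24 rose from 44.4, 41.6 and 42.4 CPM to 54.7, 52.0 and 51.9 CPM (0.31, SE 0.05, adjusted p = 3.9e-07). Neither gene had overlapping groups. Slc25a25 was at 10.2 ± 0.754 against 9.86 ± 0.449 CPM (SD, n = 3), with a log2 fold change of 0.05 and an adjusted p of 0.622.

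The phosphate carrier Slc25a3 supplies the phosphate that ATP synthase joins to ADP. Its levels were 356, 343 and 352 CPM in the libraries labelled STAT6 against 384, 353 and 363 CPM. One library labelled Mock (353 CPM) lay inside the range of the other group, and the log2 fold change was -0.07 (SE 0.03, adjusted p = 0.0651). This gene passed as lower with library totals alone (-0.14, adjusted p = 0.000254), with upper-quartile scaling (-0.08, adjusted p = 0.0239) and with no filter on low counts (-0.08, adjusted p = 0.028). It also passed without Mock replicate 2 (-0.10, adjusted p = 0.00291).

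**Figure D2:**
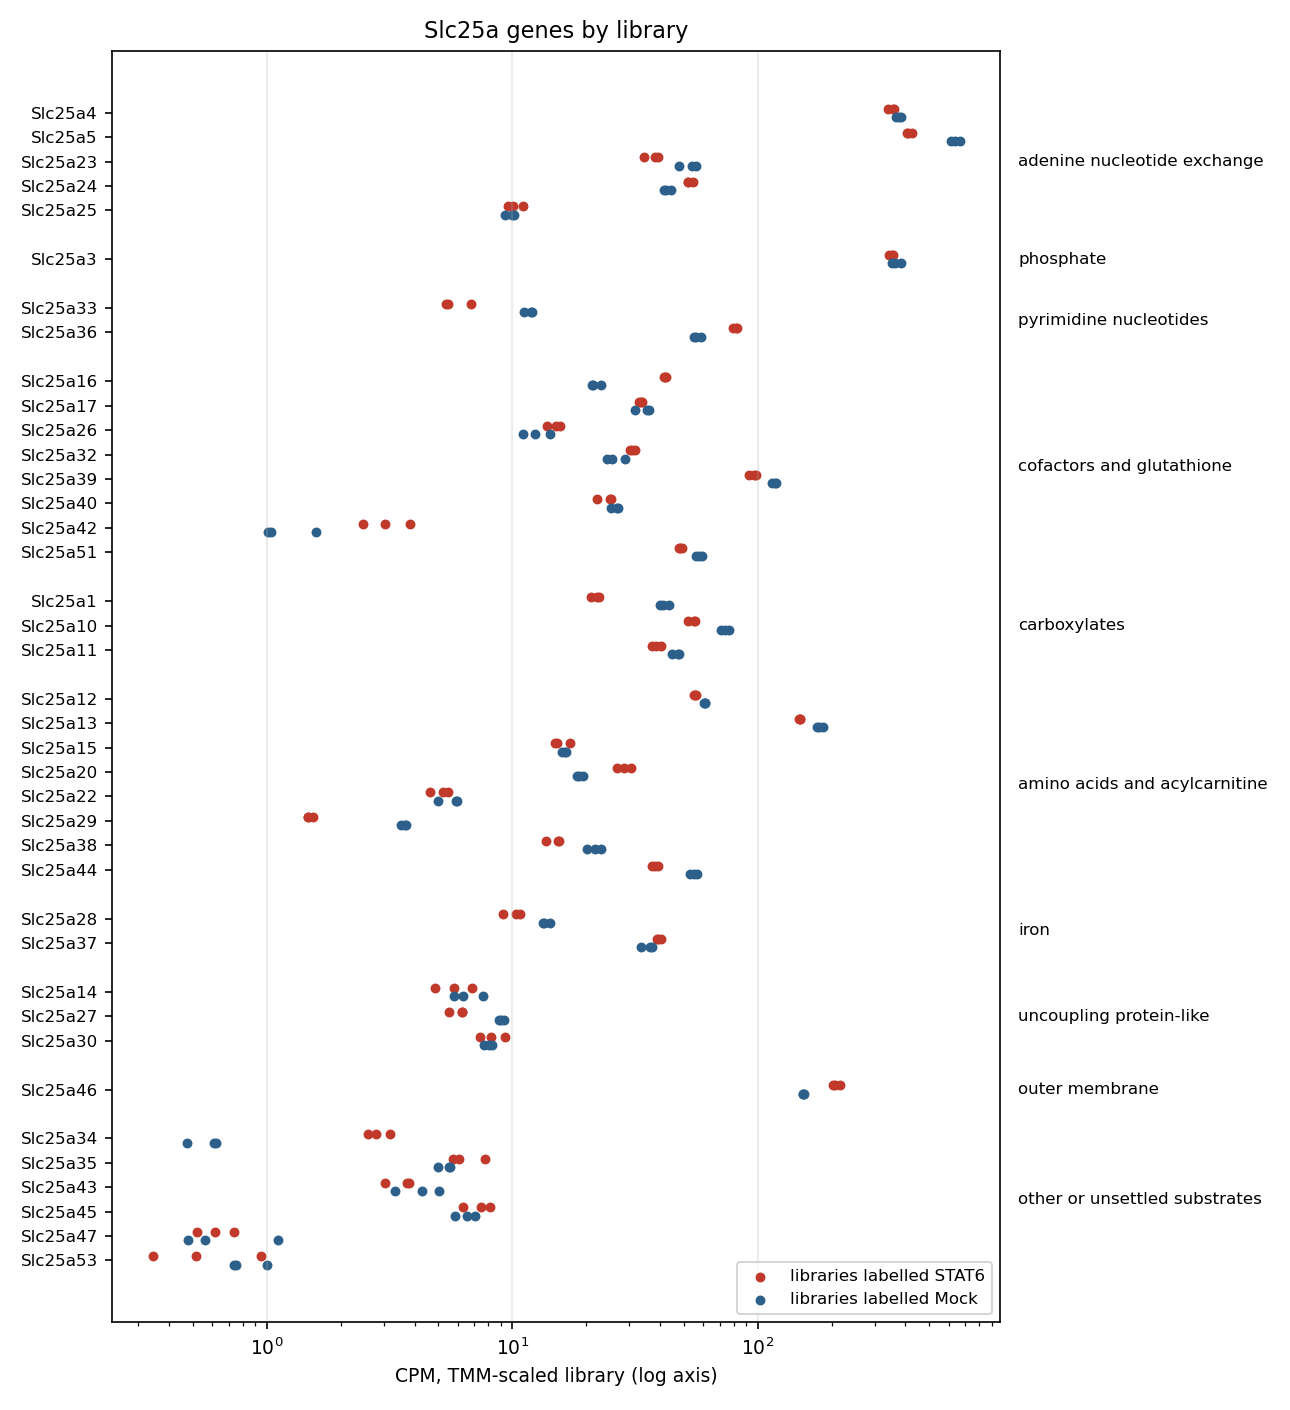
Level of 39 of the 40 tested Slc25a genes (y axis, grouped by role) in CPM of the TMM-scaled library (x axis, log scale), 1 point per library, 3 libraries per group. Points of the groups are well apart for Slc25a5, Slc25a33, Slc25a16, Slc25a1, Slc25a29 and Slc25a34, and overlap for 12 genes, Slc25a3 and Slc25a15 among them. Levels of different genes are not corrected for gene length.

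Carriers of pyrimidine nucleotides, which feed mitochondrial DNA and RNA synthesis, changed in opposite directions. Slc25a33, which encodes PNC1, fell from 11.9, 12.03 and 11.2 CPM in the libraries labelled Mock to 6.78, 5.36 and 5.49 CPM. The difference was 1.98-fold (log2 fold change -0.98, SE 0.10, adjusted p = 1.38e-10). Its relative Slc25a36, which encodes PNC2, rose from 56.3, 58.8 and 55.1 CPM to 81.3, 82.4 and 79.3 CPM, or 1.43-fold (log2 fold change 0.52, SE 0.04, adjusted p = 1.9e-13). No library of one group reached the range of the other in either gene.

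Of the 9 carriers of cofactors and glutathione 4 rose, 3 fell and 2 did not pass. Over all tested genes 35.8% were called higher and 36.8% lower, so the split of this group is near the background. The 2 largest rises among these 9 carriers were in genes tied to coenzyme A. Slc25a16, long linked to coenzyme A import, went from 21.4, 23.1 and 21.1 CPM to 41.9, 41.6 and 42.4 CPM, a 1.92-fold rise (log2 fold change 0.94, SE 0.06, adjusted p = 3.08e-17). In the order of human genes (RefSeq, assembly GRCh38.p14), the 10 nearest tested genes around it held 8 called higher and 0 called lower, and their median was 0.48 (log2 fold change). The part of that neighbourhood in the rise was not tested. Slc25a42, a coenzyme A carrier, was sparse, at 89, 48 and 62 counts against 24, 37 and 31. In CPM it was 3.84, 2.47 and 3.04 against 1.04, 1.59 and 1.01, with no overlap, and the rise was 2.6-fold (1.38, SE 0.22, adjusted p = 1.07e-06). Its 10 nearest tested genes in the human order held 3 called higher and 2 lower, with a median of 0.07.

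Other cofactor carriers moved less. Slc25a32, the folate and FAD carrier, rose slightly (log2 fold change 0.24, SE 0.06, adjusted p = 0.000704). Slc25a26 imports S-adenosylmethionine, the methyl donor. It was called higher (0.23, adjusted p = 0.0145) although its groups overlapped, and the call was lost with library totals alone (adjusted p = 0.0875), without STAT6 replicate 1 (0.0799) and without Mock replicate 1 (0.128). Slc25a51, the NAD carrier, was at 48.0, 48.4 and 49.4 CPM against 57.5, 59.4 and 56.1 CPM. This was a fall of 1.19-fold with separate groups (log2 fold change -0.25, SE 0.04, adjusted p = 7.66e-06). Slc25a39, a glutathione carrier, was at 98.3, 96.3 and 92.5 CPM against 118, 115 and 118 CPM, again with separate groups (-0.29, SE 0.04, adjusted p = 1.27e-08).

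Slc25a40, the second glutathione carrier, had groups that did not overlap but missed the threshold (-0.13, adjusted p = 0.0553). It passed with library totals alone (adjusted p = 0.00371), with upper-quartile scaling (0.0329) and with no filter on low counts (0.0439). Leaving out 1 library also brought it past the threshold, for STAT6 replicate 1 (0.0407), STAT6 replicate 2 (0.0469) and Mock replicate 2 (0.0235). Of its 10 nearest tested genes in the human order 9 were called lower and 0 higher, and their median was -0.71. Slc25a17, the peroxisomal member of the family, was at -0.05 (adjusted p = 0.416), and with library totals alone it was at -0.12 (adjusted p = 0.0455).

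All 3 tested carboxylate carriers fell, with a median log2 fold change of -0.45, where 36.8% of all tested genes were called lower. A group of 3 was not tested against that share. Slc25a1 exports citrate, the source of cytosolic acetyl-CoA for lipid synthesis. It stood at 20.9, 22.1 and 22.5 CPM in the libraries labelled STAT6 and at 41.2, 40.0 and 43.5 CPM in those labelled Mock. The groups were apart by a wide margin, and the fall was 1.91-fold (log2 fold change -0.93, SE 0.06, adjusted p = 8.66e-17). Slc25a10, which exchanges malate or succinate for phosphate, went from 73.7, 71.1 and 76.2 CPM to 51.8, 55.3 and 55.2 CPM (-0.45, SE 0.04, adjusted p = 2.47e-11). Slc25a11, the oxoglutarate/malate carrier of the malate-aspartate shuttle, fell less (log2 fold change -0.27, SE 0.05, adjusted p = 1.02e-05).

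Carriers of amino acids and acylcarnitine had 1 called higher and 5 called lower of 8 tested. Over all tested genes the shares were 35.8% higher and 36.8% lower, and a group of 8 was not tested against them. The carrier of this group that rose was Slc25a20, which takes acylcarnitines into the matrix for fatty acid oxidation. It went from 19.4, 18.7 and 18.4 CPM to 30.6, 26.8 and 28.5 CPM, a 1.53-fold rise with separate groups (log2 fold change 0.61, SE 0.06, adjusted p = 1.07e-10). The steepest fall was in Slc25a29, a carrier of basic amino acids. Its counts were low, 34, 30 and 30 against 84, 82 and 113, or 1.47, 1.55 and 1.47 CPM against 3.65, 3.53 and 3.70 CPM. Libraries within a group were close, and the fall was 2.42-fold (-1.28, SE 0.18, adjusted p = 1.65e-07). Its 10 neighbours in the human order held 1 called higher and 4 lower, with a median of -0.17.

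Slc25a38, the glycine carrier that serves heme synthesis, fell from 20.2, 21.7 and 23.1 CPM to 15.5, 15.4 and 13.7 CPM (log2 fold change -0.55, SE 0.07, adjusted p = 2.4e-08). Slc25a44, which carries branched-chain amino acids, went from 55.1, 53.1 and 56.7 CPM to 38.0, 37.1 and 39.3 CPM (-0.53, SE 0.05, adjusted p = 3.18e-12). Groups did not overlap in either gene.

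Both aspartate/glutamate carriers, which drive the malate-aspartate shuttle, fell modestly. Citrin, encoded by Slc25a13, was at 149, 147 and 148 CPM against 184, 177 and 174 CPM (log2 fold change -0.27, SE 0.03, adjusted p = 8.25e-09). Aralar, encoded by Slc25a12, was at 56.3, 55.8 and 55.2 CPM against 60.9, 60.9 and 60.5 CPM (-0.12, SE 0.04, adjusted p = 0.009). The spread within groups was small enough that even this difference left no overlap. The ornithine carrier Slc25a15 (-0.04, adjusted p = 0.597) and the glutamate carrier Slc25a22 (-0.14, adjusted p = 0.33) did not pass.

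**Figure D3:**
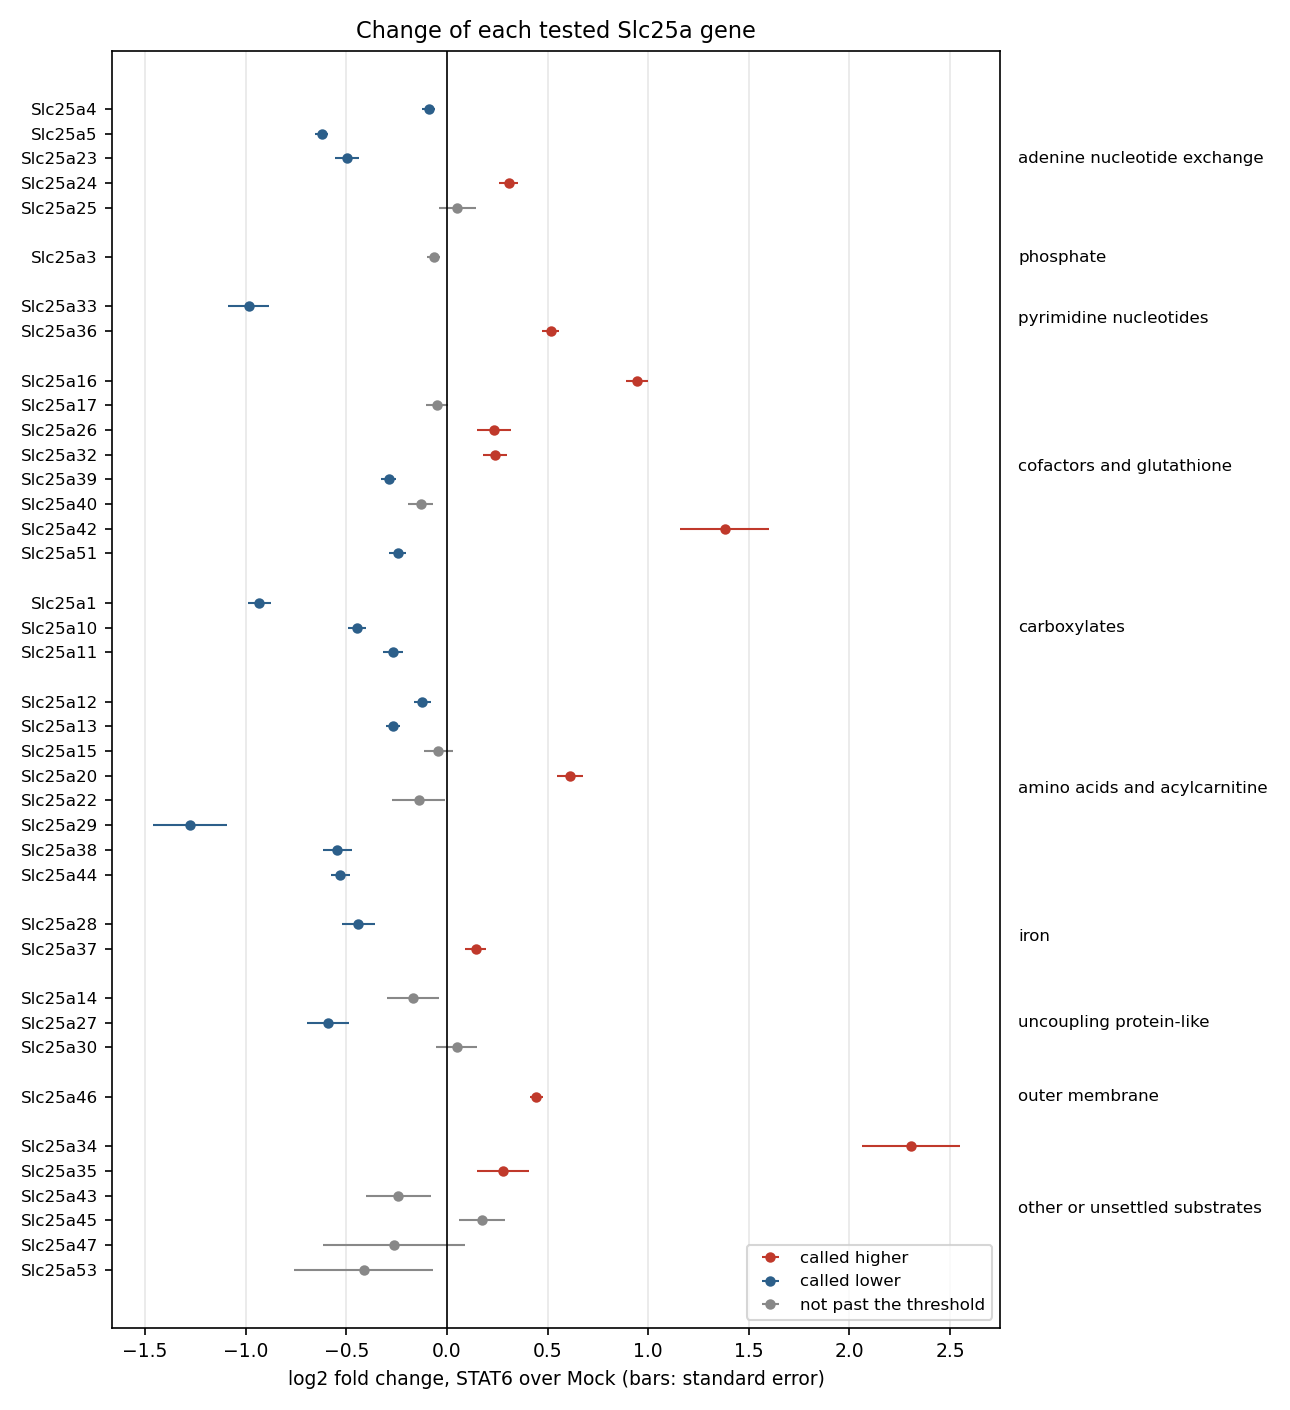
Log2 fold change, STAT6 over Mock (x axis), of 39 of the 40 tested Slc25a genes (y axis, grouped by role), with bars of 1 standard error. Red points were called higher, blue points lower and grey points did not pass. The carboxylate carriers all lie left of 0, and the pyrimidine nucleotide and iron carriers lie on both sides.

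The mitoferrins bring iron into the matrix for heme and iron-sulphur clusters, and the pair moved in opposite directions. Slc25a28, mitoferrin 2, fell from 14.3, 13.4 and 13.5 CPM to 10.3, 9.17 and 10.7 CPM (log2 fold change -0.44, SE 0.08, adjusted p = 1.91e-05). Slc25a37, mitoferrin 1 and the main form of red cell precursors, was at 39.2, 40.2 and 39.0 CPM against 36.4, 33.6 and 37.1 CPM. The groups did not overlap and the gene was called higher (0.14, SE 0.05, adjusted p = 0.0139). That call was lost with library totals alone (0.07, adjusted p = 0.242), without STAT6 replicate 2 (adjusted p = 0.052) and without Mock replicate 2 (0.105). Around Slc25a37 in the human order, 8 of 10 neighbours were called higher and 1 lower, with a median of 0.57, and their part in its call was not tested.

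Among carriers that resemble uncoupling proteins, Slc25a27, also called UCP4, fell from 8.81, 8.97 and 9.29 CPM to 6.22, 5.51 and 6.22 CPM. The groups were separate (log2 fold change -0.59, SE 0.10, adjusted p = 5.63e-06). Slc25a14, also called UCP5, was at -0.17 (adjusted p = 0.246), and Slc25a30 was at 0.05 (adjusted p = 0.689). Both had overlapping groups.

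Slc25a46 differs from most of the family in lying in the outer membrane, where it is linked to mitochondrial shape. Its levels were 217, 202 and 207 CPM in the libraries labelled STAT6 and 155, 153 and 153 CPM in those labelled Mock. The lowest of the first group was well above the highest of the second, and the rise was 1.36-fold (log2 fold change 0.44, SE 0.03, adjusted p = 4.64e-14).

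Carriers whose substrates are unsettled, or not named here, included the largest change of the family. Slc25a34 had 60, 54 and 65 counts in the libraries labelled STAT6 and 14, 11 and 19 in those labelled Mock, or 2.59, 2.78 and 3.19 CPM against 0.608, 0.474 and 0.621 CPM. No library of the second group came near the first, and the rise was 4.94-fold (log2 fold change 2.31, SE 0.24, adjusted p = 2.05e-10). Of the 10 nearest tested genes in the human order 4 were called higher and 6 lower, with a median of -0.22. Slc25a35 was called higher by a small margin (0.28, adjusted p = 0.0486), and this call was lost under most alternatives. Among them were DESeq2 (adjusted p = 0.106) and library totals alone (0.146). It was also lost without STAT6 replicate 2 (0.346) or without Mock replicate 1 (0.0644), 2 (0.129) or 3 (0.0673).

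Slc25a45 (log2 fold change 0.17, adjusted p = 0.178), Slc25a43 (-0.24, adjusted p = 0.177), Slc25a47 (-0.26, adjusted p = 0.512) and Slc25a53 (-0.41, adjusted p = 0.286) did not pass. The last 2 had at most 34 counts in a library. Slc25a43 passed without Mock replicate 3 (-0.41, adjusted p = 0.0361), and Slc25a53 passed without STAT6 replicate 1 (-0.94, adjusted p = 0.0466). Of neighbours within the family in the human order, Slc25a43 lies beside Slc25a5 (-0.62) and Slc25a47 beside Slc25a29 (-1.28).

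The family as a whole took a smaller share of the libraries labelled STAT6. All 47 rows together held 0.232%, 0.226% and 0.223% of counts there, and 0.277%, 0.262% and 0.271% in the libraries labelled Mock. The means were 0.227% ± 0.00432 and 0.270% ± 0.00725 (SD, n = 3), with no overlap (p = 0.1 in a 2-sided exact permutation test, which can go no lower with 20 assignments). Slc25a5 alone accounted for 58.4% of this difference, Slc25a4 for 9.71%, Slc25a13 for 9.07% and Slc25a3 for 8.10%, whereas Slc25a46 and Slc25a36 differed in the other direction. Without Slc25a5 the share was 0.187% against 0.204%, again with no overlap (exact permutation test, p = 0.1). These shares use plain library totals. Scaling to those totals in place of TMM shifted the log2 fold changes of tested genes by a median of -0.07. The part of that general shift in the lower share was not tested. The mtDNA-encoded protein genes took 12.1% against 9.96% of counts. With them left out of the total, the carriers held 0.258% against 0.300% (exact permutation test, p = 0.1). These are shares of counts, in which long transcripts weigh more, and in bulk RNA fewer cells of a type and less RNA per cell cannot be told apart.

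**Figure D4:**
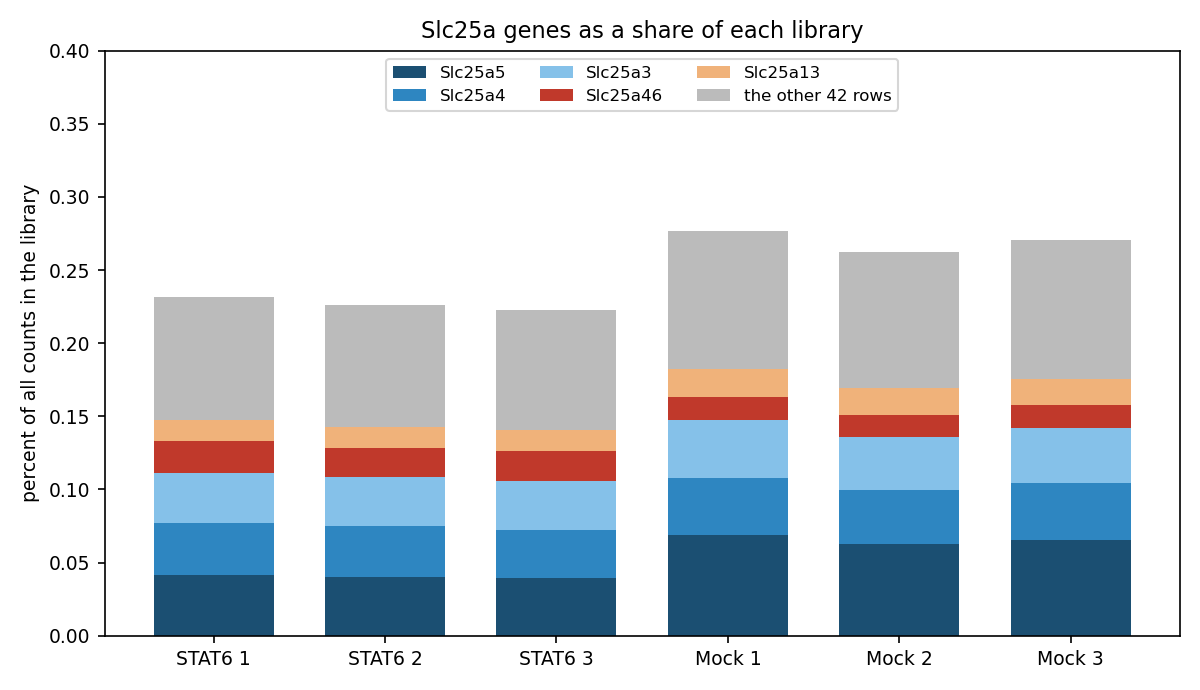
Percent of all counts (y axis) held by the Slc25a genes in each of the 6 libraries (x axis), stacked for the 5 genes with the most counts and the other rows together. The 3 libraries labelled STAT6 reach 0.223% to 0.232% and the 3 labelled Mock 0.262% to 0.277%, and the darkest segment, Slc25a5, is smaller in the former.

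Within the family's own counts, the adenine nucleotide carriers held 37.2% ± 0.489 in the libraries labelled STAT6 against 42.5% ± 0.331, and the carboxylate carriers 4.92% ± 0.244 against 6.15% ± 0.171 (SD, n = 3). Slc25a46 held 8.96% ± 0.240 against 5.83% ± 0.0952, and the pyrimidine nucleotide carriers 3.73% ± 0.0512 against 2.60% ± 0.130. Each of these 4 shares was without overlap, at the smallest p an exact permutation test allows here, 0.1. The same held for every other role except the uncoupling protein-like carriers (exact permutation test, p = 0.7), so it does not set these 4 apart. Shares of a whole also depend on each other. The phosphate carrier held 15.0% against 13.9%, although Slc25a3 itself did not rise (log2 fold change -0.07).

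Relatives with the same or a like substrate were compared by the share of the pair's counts that the first gene took, since this needs no scaling between libraries. Of the 7 pairs, 6 had no overlap between groups, and all 6 gave an exact permutation p of 0.1 (0.117 after adjustment over the 7 pairs), so none could pass 0.05. Taken singly, 74.6% of all tested genes had no overlap, and the share for pairs of other genes was not computed. Slc25a33 took 7.70%, 6.10% and 6.47% of the counts it shares with Slc25a36 in the libraries labelled STAT6, against 17.5%, 16.99% and 16.9%. The difference of -10.4 percentage points was the widest of these 7 chosen pairs. Slc25a23 and Slc25a24, which moved in opposite directions, were not compared as a pair. Slc25a4 took 45.5%, 46.6% and 45.7% of the ADP/ATP carrier counts, against 36.2%, 37.3% and 37.6%, a difference of 8.91 points toward Slc25a4. Slc25a37 took 79.1%, 81.4% and 78.4% of mitoferrin counts, against 71.8%, 71.5% and 73.4%, a difference of 7.43 points toward mitoferrin 1.

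Smaller differences were 2.49 points toward Slc25a24 from Slc25a25, 1.96 points toward Slc25a12 from Slc25a13, and 1.70 points from Slc25a39 toward Slc25a40. For Slc25a14 against Slc25a30 the groups overlapped (41.2% ± 1.40 against 45.0% ± 4.14, exact permutation p = 0.2, adjusted p = 0.2), and the difference of -3.79 points became -1.43 without Mock replicate 1.

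**Figure D5:**
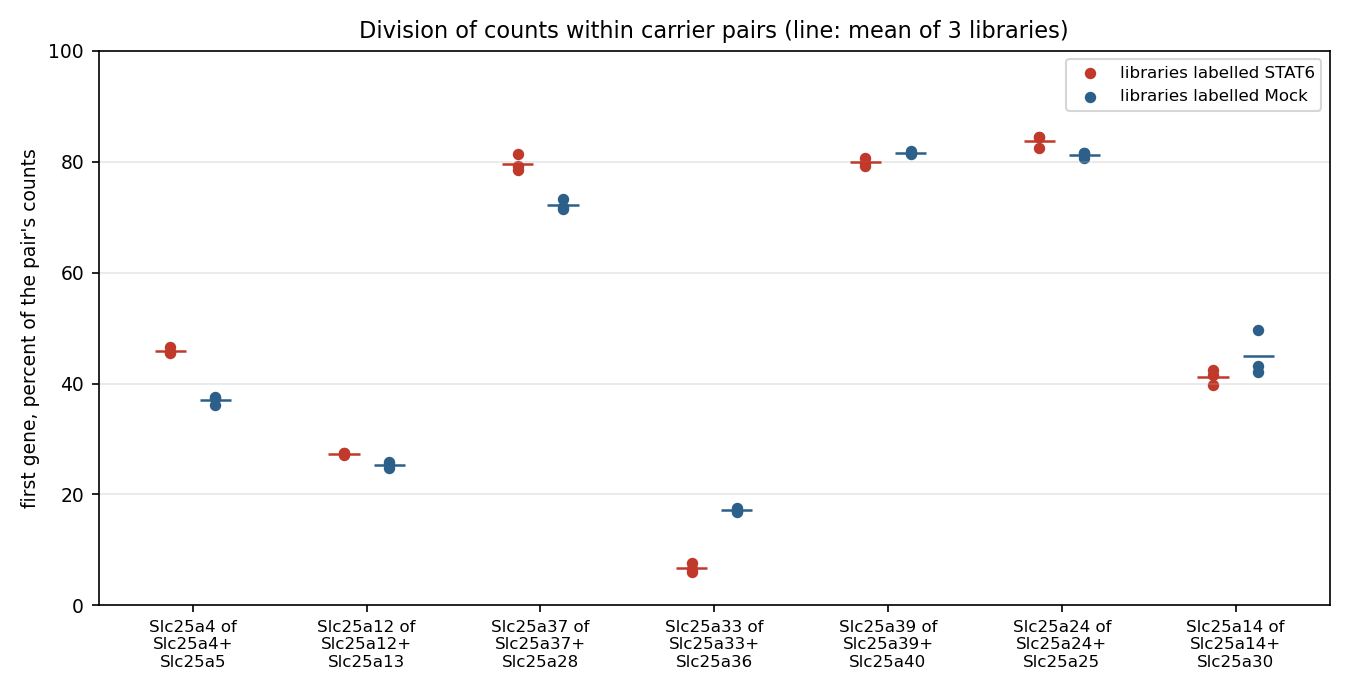
Share of a carrier pair's counts taken by its first gene (y axis, percent) for 7 pairs (x axis), 1 point per library and a line at the mean of 3 libraries. The groups are apart by 8.91 points for the ADP/ATP carriers and by 10.4 points for the pyrimidine nucleotide carriers, and overlap for Slc25a14 with Slc25a30.

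Of the 7 carriers that were not tested, Slc25a41 and Slc25a54 had 0 counts in all 6 libraries, where a count of 0 allows up to 3 counts, or 0.0981 to 0.155 CPM (counting error only). Slc25a2, an ornithine carrier, had 0 counts in each library labelled STAT6 and 1, 3 and 1 in those labelled Mock. Slc25a18, a glutamate carrier, had 2 counts in 1 library labelled STAT6 and 1 in 1 labelled Mock. Slc25a21, the oxoadipate carrier, and Slc25a48 each had 1 count in 1 library labelled Mock, and Slc25a31, the germ cell ADP/ATP carrier ANT4, had 1 in 1 library labelled STAT6. At these counts no difference was detectable.

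Family members named otherwise were divided as well. Mtch1, an outer membrane relative, rose (log2 fold change 0.29, adjusted p = 5.73e-09) and Mtch2, an outer membrane insertase, fell (-0.16, adjusted p = 0.000122). The uncoupling protein gene Ucp2 fell from low levels (-1.15, adjusted p = 0.00139), and Ucp1 and Ucp3 were not tested. Each count of a list's genes from here on stands beside the background of all tested genes, 35.8% called higher and 36.8% lower, and lists of this size were not tested against it. In the route that imports carriers, 3 of 16 genes rose (18.8%) and 10 fell (62.5%), with a median of -0.16. There the insertase gene Timm22 rose (0.60), while the small chaperone gene Timm9 (-0.49) and the TOM subunit genes Tomm7 (-0.44) and Tomm22 (-0.31) fell.

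Enzymes that work on the carried substrates are listed here by the carriers they adjoin. Beside the citrate and malate-aspartate carriers stood 10 enzymes that handle citrate, malate or aspartate, or belong to the glycerol phosphate shuttle (Gpd1 and Gpd2). Of the 10, 9 fell (90.0%, against 36.8% of all genes) and 1 rose (10.0%, against 35.8%), with a median of -0.32. The falls were small, and none of these enzymes reached 1.5-fold. Those with the smallest adjusted p were the citrate synthase gene Cs (-0.52), Got2 (-0.51), Acly, which cleaves exported citrate (-0.50), and Mdh2 (-0.31). Beside Slc25a20, 2 of 7 carnitine shuttle genes rose (28.6%) and 4 fell (57.1%). Cpt1a (0.87) and Cpt1c (0.93) were higher, Crot (-0.67) and Cpt2 (-0.51) lower. Beside the ADP/ATP carriers, 2 of 7 tested partners rose (28.6%) and 5 fell (71.4%), with the hexokinase gene Hk1 (1.71) and the creatine kinase gene Ckb (1.35) higher and the adenylate kinase gene Ak4 (-3.92) lower.

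Beside the mitoferrins and the glycine carrier, 7 of 15 tested genes of heme, iron-sulphur and iron handling rose (46.7%, against 35.8% of all genes) and 6 fell (40.0%, against 36.8%). The ferritin gene Fth1 was at 0.57 against Ftl1 at -0.39 and Tfrc at -0.45. Beside the folate carrier, 3 of 12 tested enzymes rose (25.0%) and 8 fell (66.7%), among them Mthfd1l (1.38) and Aldh1l2 (1.38) against Shmt1 (-1.81) and Shmt2 (-0.67). For glutamate, ornithine, proline and branched-chain amino acids, 4 of 11 rose and 4 fell, 36.4% each way and so at the background, with Ass1 (1.22) and Odc1 (0.42) higher and Oat (-0.78) and Aldh18a1 (-0.73) lower. Enzymes of NAD, thiamine and coenzyme A had 3 higher (27.3%) and 5 lower (45.5%) of 11, with Nampt (-0.83) and Nadk2 (-1.004) lower. Of the pantothenate kinase genes, whose products start coenzyme A synthesis, Pank1 (-0.61), Pank3 (-0.81) and Pank4 (-0.49) fell and Pank2 rose (0.21). Glutathione enzymes had 4 higher (57.1%) and 3 lower (42.9%) of 7, Gpx4 (1.25), Gss (1.03) and Gpx1 (0.77) against Gclc (-0.27). Of 25 other mitochondrial channels and transporters 11 rose (44.0%) and 12 fell (48.0%). Those with the smallest adjusted p were Sfxn3 (1.37), Sfxn1 (-0.82), Ghitm (0.66) and Abcb8 (-1.14). Over all 11 lists, 41 of 124 tested genes rose (33.1%) and 68 fell (54.8%).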

How the data were processed

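Extraction used TaKaRa RNAiso Plus and library preparation a TruSeq stranded mRNA kit, per the labels' protocols. The values the authors deposited are counts, as whole numbers per gene symbol, 1 file per library. Tools listed in the submitters' processing notes are STAR, Salmon, FastQC and edgeR, with the build GRCh37. The annotation, the strand setting and the tool versions: not given in the sources used here. No mouse genome or sequence table was used here, so no coordinates or sequences are given.

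The test ran on the unaltered counts in edgeR 4.0.16 (R 4.3.3): filterByExpr, TMM, glmQLFit with robust = TRUE and glmQLFTest, 2-sided, group as the only term, all 6 libraries, Benjamini-Hochberg adjustment over 12938 genes. SE is the absolute log2 fold change over the square root of F. Neighbours are the 5 nearest tested genes on each side by human gene order; 10615 of the tested genes were placed. DESeq2 1.42.0 and limma-voom 3.58.1 were alternatives. Counts for 12938 genes were simulated from this comparison, with 50 genes changed at each fold and all others unchanged. On these, edgeR recovered 52% of genes changed 1.2-fold, 86% at 1.5-fold, 96% at 2-fold and 100% at 4-fold. In the data 72.6% of tested genes passed, a far larger share, so these rates need not hold for the data. Libraries of a group differed by 1.47 to 2.46 times counting noise (median chi-square), so none was a copy.

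The Slc25a genes, roles, pairs and lists were chosen with earlier results of these data known. Values by library are given for called members with a log2 change of at least 0.5 and for Slc25a1, Slc25a3, Slc25a4, Slc25a5, Slc25a12, Slc25a13, Slc25a20, Slc25a28, Slc25a37, Slc25a39, Slc25a46 and Slc25a51. From each of 11 lists the genes with the smallest adjusted p are named, at most 4. Library values of Slc25a10, Slc25a23 and Slc25a24, and the naming of Pank2 and Pank4, fall outside these rules and were chosen after the values were seen. So was the choice to give neighbours, which are printed for carriers changed at least 2-fold and for those with at least 8 of 10 neighbours called one way. Marker levels are CPM of the plain library total. The values of 1 tested carrier and of some list genes are not reported here; all are in the counts.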

Additional observations from a re-analysis of the deposited data

How the results depend on the processing

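Of the 28 called carriers, 24 kept direction and call under every alternative other than stricter thresholds, and Slc25a4, Slc25a26, Slc25a35 and Slc25a37 did not. The share of all called genes that did so was not computed, so this is not a trait of the carriers. The counts of carriers called higher and lower, 11 and 17, ranged from 9 to 11 and from 16 to 19 with 1 library left out. Over all genes tested in those fits, 34.0% to 35.7% were called higher and 34.5% to 36.2% lower. A test for a change beyond 1.5-fold (glmTreat) called 3 higher (Slc25a16, Slc25a34, Slc25a42) and 3 lower (Slc25a1, Slc25a29, Slc25a33), where 14% and 7.51% of all genes were called. For the enzyme and transporter lists it called 15 higher and 17 lower, against 41 and 68 in the main test; by construction it asks for a larger change. With the replicate number as a block the carriers were 10 higher and 18 lower, where 35.9% and 36.9% of all genes were called. Same-numbered libraries correlated at 0.05, 0.10 and 0.03 in their deviations, and differently numbered ones at -0.08 to 0.04. Of the 6 libraries, 5 correlated best with their own number. Whether the numbers mark a pairing was not tested, and the main test used no block. The block ended the call of Slc25a35 (adjusted p = 0.0596) and brought Slc25a3 past the threshold (0.0454). Carriers at a few counts a library are limited by depth.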
